A study of Mus musculus with 7 samples.

Results

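The genes described here encode 10 transcription factors, namely the AP-1 subunits Fos, Fosb, Fosl1, Fosl2, Jun, Junb and Jund, together with Egr1, Srf and Myc. They were chosen by name, and their array probes were found by matching the probe's accession to RefSeq. A probe was matched for 9 of the 10 genes, 1 probe each, among 13971 genes named in this way on the array, and Fosl2 had no matched probe. Of the 9 probes, 7 were called good, that is, above background, on all 7 arrays, and those of Fosl1 and Egr1 on 6.

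AP-1 is a dimer of a Jun protein with another Jun protein or with a Fos protein, and it binds DNA through a basic leucine zipper. Fos, Fosb, Jun, Junb, Egr1 and Myc belong to the immediate early genes, whose transcription follows within minutes of a growth factor or stress signal without new protein synthesis, whereas Fosl1 follows more slowly and Jund is expressed more steadily. SRF binds the CArG boxes of many of these genes together with ternary complex factors that MAP kinases phosphorylate, and in mammary epithelium AP-1 and MYC are known as downstream factors of EGF, estrogen and progesterone signaling.

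RNA from mouse mammary glands kept in serum-free organ culture was hybridized to CodeLink Mouse Whole Genome arrays, a 1-colour oligonucleotide platform, with 1 array for each of 7 groups. The donors were females of 4 weeks of age. The αERKO group (Esr1 knockout) and the group labelled βERKO (Esr2 knockout), both of C57BL6/129SV background, were taken after 24 days of culture. The wild-type (WT) groups of strain C57 were taken after 24 days with DMBA, after 24 days without DMBA and after 10 days without DMBA, and the Balb/c groups after 24 days with and without Vitamin D5. DMBA is a polycyclic hydrocarbon that acts as a carcinogen in these cultures, and its culture protocol gives 2 µg/ml for 24 h from Day 3. The titles name DMBA only for the WT + DMBA array and do not mention it for the knockout and Balb/c arrays. The protocol given for every sample includes it. The study's text describes the glands of its WT, αERKO and βERKO arrays as treated with DMBA. For the Balb/c arrays exposure is not settled. The protocol has 10 days with insulin, prolactin, aldosterone and hydrocortisone followed by 14 days with insulin alone, so the WT array of day 10 was taken before the regression phase. The labels of all samples name 2 pretreatments of the mice, EGF (25 ng) with progesterone (1 mg) over 5 days and estrogen (1 µg) with progesterone over 9 days. The study's text gives EGF with progesterone for the arrays that compare WT, αERKO and βERKO glands. Which of them the mice of the WT arrays without DMBA and of the Balb/c arrays had is not given in the sources used here. Glands of 5 mice were pooled for WT, αERKO and βERKO, so an array averages its animals and carries no measure of their spread. Strain differs between the knockout and C57 groups, and genotype and strain cannot be told apart.

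The probes of the targeted genes did not settle the labels. The Esr1 probe was near background on both knockout arrays and was called good on 2 of the 7 arrays, which were WT + DMBA, with a normalized intensity of 0.494, and Balb/c with Vitamin D5, with 0.600. The Esr2 probe was brightest on the array labelled βERKO, at 1.83, and was otherwise good on 1 array only, WT without DMBA at day 24, at 0.683. The signal of Esr2 thus goes against the label, and every direction drawn below from the array labelled βERKO rests on it. Good spots made up 68.4% to 74.2% of the 34967 gene probes per array. The αERKO array also stood apart in its tissue markers. The summed intensity of 10 skeletal muscle genes was 1898 there, with all 10 above background, and lay between 5.18 and 41.3 on the other arrays, where 4 to 6 of the 10 were above background and Actn3 and Myh4 were near background throughout. The sum of 7 luminal epithelial keratin and adhesion genes was lowest on the αERKO array, at 444, and lay between 549 and 1161 elsewhere, and all 7 were above background on every array.

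Promoter sequences of the factors were read from RefSeq (GRCm38.p6), each running from 250 bases before the annotated start to 50 bases after it. They are shown for Srf, Fos and Jun because these held a match to a motif listed below, and capitals mark the matches. The Srf promoter (chr17:46556113-46556412, minus strand) held 2 CArG boxes, the binding motif of SRF, at positions -82 and -62 from the start. The Fos promoter (chr12:85473640-85473939, plus strand) held TGACGT, the core of a CREB and ATF motif, at -66. The Jun promoter (chr4:95052173-95052472, minus strand) held TGACATCA, a variant AP-1 site, at -45.
Srf: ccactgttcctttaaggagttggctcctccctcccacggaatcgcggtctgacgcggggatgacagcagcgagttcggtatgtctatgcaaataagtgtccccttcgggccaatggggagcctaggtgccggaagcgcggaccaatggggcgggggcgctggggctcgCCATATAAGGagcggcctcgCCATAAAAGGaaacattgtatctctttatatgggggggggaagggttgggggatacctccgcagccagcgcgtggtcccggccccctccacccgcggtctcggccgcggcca
Fos: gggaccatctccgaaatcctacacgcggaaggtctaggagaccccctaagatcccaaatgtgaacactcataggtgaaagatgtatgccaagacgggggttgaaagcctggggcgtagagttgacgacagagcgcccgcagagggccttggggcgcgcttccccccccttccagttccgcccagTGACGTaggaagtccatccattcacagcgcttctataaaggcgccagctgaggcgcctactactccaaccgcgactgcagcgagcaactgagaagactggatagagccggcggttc
Jun: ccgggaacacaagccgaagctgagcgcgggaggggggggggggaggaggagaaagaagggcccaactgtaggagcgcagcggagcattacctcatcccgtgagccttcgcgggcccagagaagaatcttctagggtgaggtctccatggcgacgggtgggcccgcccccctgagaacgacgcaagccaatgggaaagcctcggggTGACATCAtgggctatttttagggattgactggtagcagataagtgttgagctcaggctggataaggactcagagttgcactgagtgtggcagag

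Both strands were searched for the CArG box, for the AP-1 motifs TGACTCA and TGACGTCA, for the MYC and MAX motif CACGTG and for the EGR1 motif GCGTGGGCG, and TGACGT (which lies within TGACGTCA) and TGACATCA were added after the first search. Of 32851 promoters of the same length, 1.63% held a CArG box, 7.51% TGACGT and 3.62% TGACATCA. TGACTCA was held by 5.20%, TGACGTCA by 1.79%, CACGTG by 7.15% and GCGTGGGCG by 0.612%. The promoters of Fosb, Fosl2, Junb and Jund held none of these letters in this window. Those of Fosl1, Egr1 and Myc were not searched. A match describes the sequence only, and no binding was measured.

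Values are given as normalized intensity, the spot's intensity over the median of the gene probes of its array, so that 1 is the median probe, and they compare arrays for 1 gene and not genes with each other. Without replicate arrays no test was possible and no p-value is given. As a yardstick, the log2 ratios of pairs of probes for the same transcript were compared, and their SD, between 0.22 and 0.59 on the log2 scale over the 7 comparisons made, measures the disagreement of probes but not that of animals, cultures or arrays. Many other genes of a pair can lie beyond it too, so it does not set a gene apart from the rest.

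Fos encodes c-Fos, the best known immediate early subunit, which has to pair with a Jun protein. Its normalized intensity was 0.994 on αERKO, 3.60 on the array labelled βERKO, 3.00 on WT + DMBA, 3.14 on WT at day 10, 4.34 on WT at day 24, 1.99 on Balb/c and 5.11 on Balb/c with Vitamin D5. The αERKO array was the lowest and was separated from the next array, Balb/c, by 1.00 on the log2 scale, beyond the probe-pair SD of 0.58. Balb/c was in turn separated from WT + DMBA by 0.59, and the steps among the upper 5 arrays were each within the SD.

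Fosb encodes FosB, a close relative of c-Fos. The normalized intensity was 1.97 on αERKO, 2.59 on the array labelled βERKO, 2.15 on WT + DMBA, 2.32 on WT at day 10, 2.14 on WT at day 24, 1.89 on Balb/c and 2.09 on Balb/c with Vitamin D5. The values spanned 0.45 on the log2 scale, the narrowest range of the 9 genes, and no neighbouring arrays differed beyond the SD.

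Fosl1 encodes FRA-1, which lacks the transactivation domain of c-Fos and accumulates under sustained ERK signaling. Its probe was near background on the αERKO array, at 0.363, and good on all others, at 19.2 on the array labelled βERKO, 3.30 on WT + DMBA, 8.94 on WT at day 10, 18.1 on WT at day 24, 5.02 on Balb/c and 7.30 on Balb/c with Vitamin D5. The range was the widest of the 9 genes, at least 5.73 on the log2 scale with the αERKO array, where the probe gives a bound only, and 2.54 without it. All steps in the order of the arrays were beyond the SD except the topmost, between WT at day 24 and the array labelled βERKO (0.09).

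Jun encodes c-Jun, the AP-1 subunit that Jun N-terminal kinases phosphorylate. On the 7 arrays its normalized intensity was 22.2 on αERKO, 48.6 on the array labelled βERKO, 28.2 on WT + DMBA, 40.1 on WT at day 10, 36.5 on WT at day 24, 38.3 on Balb/c and 40.9 on Balb/c with Vitamin D5. The αERKO and WT + DMBA arrays were the lowest and did not differ beyond the SD, and the step from WT + DMBA to WT at day 24 (0.37) was the only neighbouring step beyond it.

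Junb encodes JunB, a Jun protein that often restrains c-Jun activity. The intensity of its probe, normalized as above, was 1.504 on αERKO, 5.16 on the array labelled βERKO, 3.64 on WT + DMBA, 5.12 on WT at day 10, 5.97 on WT at day 24, 3.38 on Balb/c and 5.31 on Balb/c with Vitamin D5. The αERKO array was lowest and lay 1.17 on the log2 scale below Balb/c. Balb/c and WT + DMBA formed a middle pair, and the other 4 arrays lay above them within the SD of their neighbours.

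Jund encodes JunD, the Jun protein expressed most steadily in resting cells. Its probe had a normalized intensity of 131 on αERKO, 209 on the array labelled βERKO, 120 on WT + DMBA, 183 on WT at day 10, 201 on WT at day 24, 178 on Balb/c and 170 on Balb/c with Vitamin D5. WT + DMBA, and not αERKO, was the lowest array for this gene, and none of the 6 neighbouring steps was beyond the SD.

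Egr1 encodes a zinc finger factor that responds to ERK signaling and serum. Normalized, the intensity of its probe was 0.584 on αERKO, 1.69 on the array labelled βERKO, 1.26 on WT + DMBA, 1.28 on WT at day 24, 0.815 on Balb/c and 1.45 on Balb/c with Vitamin D5. On WT at day 10 it was 1.28 from a spot of irregular shape. This spot was left out of the comparison of culture times but kept in the order of the arrays and in the correlations given below. The αERKO and Balb/c arrays were the lowest and did not differ beyond the SD, and Balb/c lay 0.63 on the log2 scale below WT + DMBA. This dim probe lay near the median intensity of its arrays.

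Srf encodes the serum response factor itself. The normalized intensity of its probe was 3.81 on αERKO, 8.62 on the array labelled βERKO, 5.56 on WT + DMBA, 6.22 on WT at day 10, 6.90 on WT at day 24, 5.94 on Balb/c and 6.29 on Balb/c with Vitamin D5. The 5 arrays of wild-type glands lay close together, with the αERKO array below them and the array labelled βERKO above them, but each neighbouring step was within the SD.

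Myc encodes c-MYC, which pairs with MAX and drives ribosome production and growth. Across the arrays its normalized intensity was 5.71 on αERKO, 26.3 on the array labelled βERKO, 14.5 on WT + DMBA, 30.7 on WT at day 10, 35.5 on WT at day 24, 21.6 on Balb/c and 27.5 on Balb/c with Vitamin D5. The αERKO array lay 1.35 on the log2 scale below WT + DMBA, which lay 0.58 below Balb/c. Both steps were beyond the SD, and those among the upper 5 arrays were within it.

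**Figure D1:**
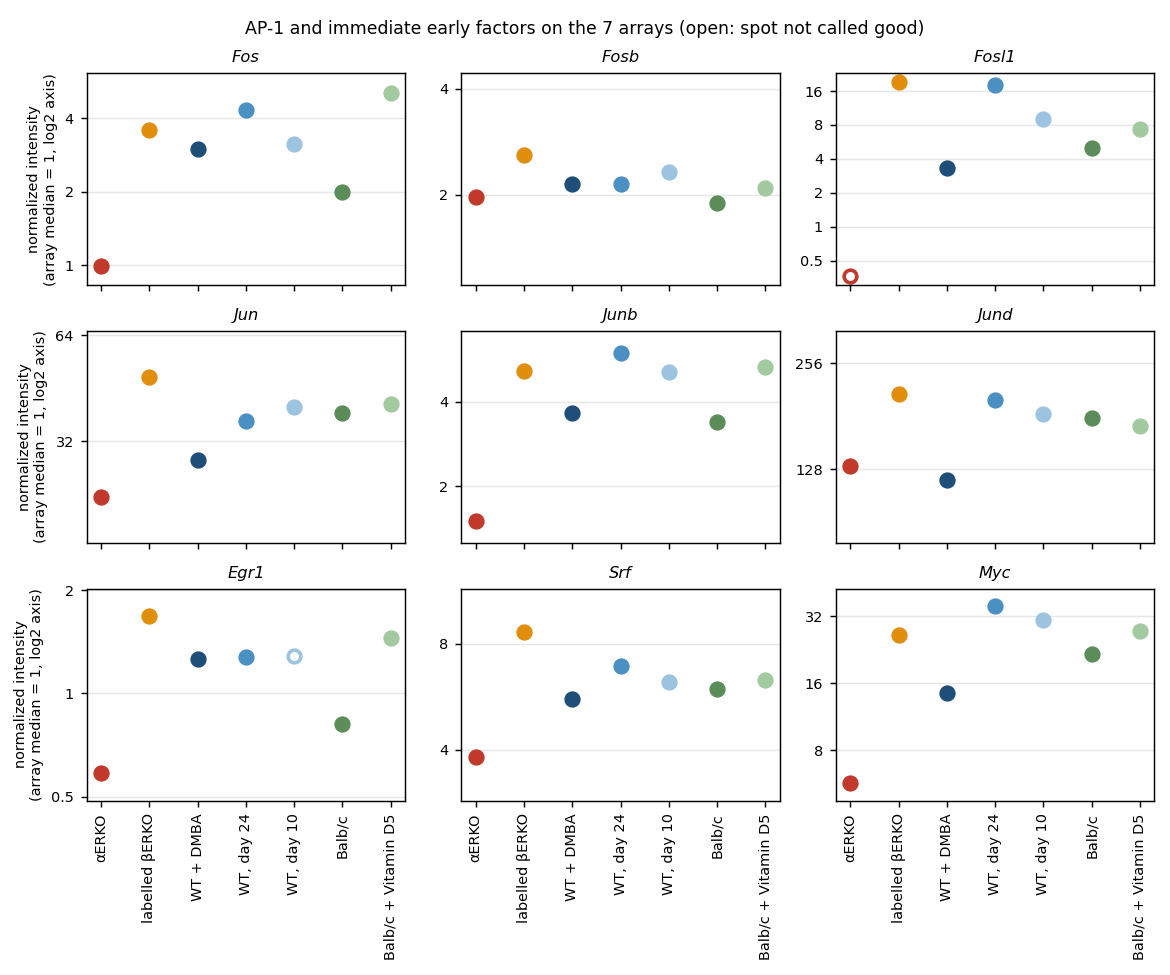
Normalized intensity (log2 axis, array median = 1) of the 9 measured genes on the 7 arrays, 1 point per array, with open symbols for spots not called good. The αERKO array is the lowest for 7 of the 9 genes, from 0.363 for Fosl1 to 22.2 for Jun. Fosb, with 0.45 on the log2 scale, and Jund, with 0.81, have the narrowest ranges.

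The αERKO array was thus the lowest of the 7 for 7 of the 9 genes, all but Fosb and Jund. Of the 7 members good on all arrays it was the lowest for 5, where 42.4% of the 9338 genes good on all arrays were lowest on it. The array labelled βERKO was the highest for 6 of the 9 genes, and for 4 of the 7 good on all arrays, where 17.7% of genes were highest on it. These counts were added after the values had been seen. Among the 54 neighbouring steps in the orders of the 9 genes, 13 were beyond the probe-pair SD and 41 were within it.

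The genes varied together to different degrees. Over the 36 pairs, Pearson's r of log2 levels on the 7 arrays lay between 0.44 and 0.97, with a median of 0.82, and between 0.17 and 0.88, with a median of 0.62, when the αERKO array was left out. Junb and Myc had the highest r, 0.97, followed by Junb and Fosl1, with 0.96, and Fosb and Myc the lowest, 0.44. The Fosl1 level on αERKO is a value near background. The arrays share scaling and tissue composition, so these values are descriptions. Without the αERKO array the range narrowed from 2.36 to 1.36 on the log2 scale for Fos, from 1.99 to 0.82 for Junb, from 1.53 to 1.05 for Egr1, from 1.18 to 0.63 for Srf, from 1.13 to 0.79 for Jun and from 2.64 to 1.29 for Myc.

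The αERKO and WT + DMBA arrays were compared first, as the comparison of glands without ERα with the control. The study describes the WT and βERKO glands of its arrays as containing preneoplastic lesions, and the αERKO glands as free of them. Genotype and lesions cannot be told apart in this comparison or between the knockout arrays. Over 2-fold, counted with the bound where a spot was near background, 5 of the 9 genes were lower on the αERKO array and none was higher, where 12.9% of 12079 genes were lower and 9.6% higher. After scaling to the 75th percentile 4 of the 9 were lower, Egr1 falling short with a log2 ratio of -0.98, against 10.3% of all genes lower and 11.4% higher. Fosl1 was at least 9.11-fold lower, Fos 3.02-fold, Myc 2.54-fold, Junb 2.42-fold and Egr1 2.16-fold, each beyond the SD of 0.59. Srf had a log2 ratio of -0.55, Jun -0.34, Fosb -0.13 and Jund 0.13, all within it, and the sign of the last 2 changed under another scaling or background correction. The median log2 ratio of the 9 genes was -1.11, against -0.16 for all genes.

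Tissue markers moved with this comparison. The summed skeletal muscle markers were 202-fold higher on the αERKO array, with 10 of 10 above background against 4 of 10 on WT + DMBA. The summed luminal markers were 1.24-fold lower, with 2 of 7 genes over 2-fold lower, none higher and a median log2 ratio of -0.69. The summed basal markers were 2.54-fold lower, with 5 of 6 over 2-fold lower. Milk protein markers were 5.33-fold lower in sum, with 4 of 4 over 2-fold, and macrophage markers 4.58-fold lower, with 3 of 3 over 2-fold. Stromal markers were 1.98-fold higher, lymphocyte markers 2.36-fold and adipocyte markers 1.69-fold. In whole glands, fewer cells of a type and less RNA per cell cannot be told apart, and the part of composition in the lower values of the factors was not tested. The count also depended on the background correction, since with normexp, which damps dim spots, 2 of the 9 genes remained over 2-fold lower, with a log2 ratio of -1.35 for Myc and -1.55 for Fosl1, while Fos was at -0.99. Of all 12079 genes, 1089 were lower and 544 higher with normexp.

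The array labelled βERKO was set against the same WT + DMBA array, which this comparison shares with the one before. All 9 log2 ratios were above 0, with a median of 0.63 against 0.14 for all genes, and 7 of the 9 lay beyond the SD of 0.37. Fosl1 was the only member over 2-fold, 5.81-fold higher, where 5.76% of 11983 genes were higher and 5.28% lower. Myc followed with 1.81-fold, Jund with 1.75-fold, Jun with 1.72-fold, Srf with 1.55-fold, Junb with 1.42-fold and Egr1 with 1.34-fold. In size, the Fosl1 ratio exceeded those of 98.7% of all genes, the Myc ratio those of 85.5% and the Egr1 ratio those of 60.5%. Fosb, with a log2 ratio of 0.27, and Fos, with 0.26, lay within the SD. The luminal marker sum was 1.498-fold higher and the stromal marker sum 3.12-fold lower on the array labelled βERKO, the latter with 5 of 6 genes over 2-fold. Skeletal muscle markers were 4.39-fold higher there, with 5 of the 6 tested over 2-fold, while endothelial markers were 2.37-fold lower, macrophage markers 1.96-fold and milk protein markers 1.51-fold. Of the 4 milk protein markers, 2 were over 2-fold lower and 1 was higher. The part of these cell types in the ratios was not tested.

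Between the knockout arrays, each of which enters 1 of the preceding comparisons, all 9 genes had the lower value on the αERKO array, and 7 were over 2-fold lower, where 18.1% of 11890 genes were lower and 10.4% higher. After scaling to the 75th percentile 5 of the 9 were over 2-fold lower, against 13.7% of all genes lower and 12.9% higher, since Jun (-0.95) and Srf (-0.996) no longer passed. They did not pass under quantile normalization either, with log2 ratios of -0.85 and -0.98, and 5 also remained with normexp. Of all 11890 genes, 1374 were lower and 681 higher with normexp. Fosl1 was at least 52.9-fold lower, Myc 4.60-fold, Fos 3.62-fold, Junb 3.43-fold, Egr1 2.89-fold, Srf 2.26-fold and Jun 2.19-fold. Jund was 1.59-fold lower, beyond the SD of 0.56, and Fosb 1.32-fold, within it. The median log2 ratio was -1.53 for the 9 genes and -0.29 for all genes. The luminal marker sum was 1.85-fold lower and the basal one 3.10-fold lower on the αERKO array, and skeletal muscle markers were 46.0-fold higher. Stromal markers were 6.18-fold higher and endothelial markers 3.33-fold, while milk protein markers were 3.53-fold lower and macrophage markers 2.34-fold lower.

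Exposure to DMBA was examined within strain C57, between WT arrays of day 24. The pretreatment behind the array without DMBA is not given, so DMBA and pretreatment cannot be told apart. Fosl1 was 5.47-fold lower and Myc 2.45-fold lower on the array with DMBA, the only members of 9 over 2-fold, where 6.61% of 12074 genes were lower and 9.74% higher. Jund was 1.68-fold lower, Junb 1.64-fold, Fos 1.45-fold, Jun 1.29-fold and Srf 1.24-fold, each beyond the SD of 0.30. In size, these ratios exceeded those of 72.9%, 71.1%, 58.9%, 44.5% and 38.1% of all genes, in that order. Lying beyond the SD was thus common among genes in this pair. The log2 ratio was -0.02 for Egr1 and 0.00 for Fosb, whose sign changed under quantile normalization. Both arrays of this pair were of the same labelled strain and day. Their marker sums differed all the same, with stroma 16.4-fold, endothelium 6.17-fold and adipocytes 1.76-fold higher and luminal epithelium 2.11-fold lower on the array with DMBA. The part of composition in these ratios was not tested.

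Culture time was examined without DMBA, day 24 against day 10. By the protocol the 14 days between these had insulin alone, so culture time and the change of medium cannot be told apart. Of the 8 genes compared, Fosl1 was 2.02-fold higher at day 24, just over the threshold and beyond the SD of 0.23, where 3.75% of 11801 genes were higher and 2.9% lower. Fos was 1.38-fold higher, also beyond the SD. The log2 ratio was 0.22 for Junb, 0.21 for Myc, 0.15 for Srf, 0.13 for Jund (of opposite sign under quantile normalization), -0.11 for Fosb and -0.14 for Jun, all within the SD. The median was 0.18 for the 8 genes and 0.16 for all genes. Basal markers in sum were 2.59-fold lower at day 24, with 4 of 6 over 2-fold lower and 1 higher, while luminal markers differed 1.15-fold. Milk protein markers were 3.92-fold higher in sum at day 24 and adipocyte markers 3.35-fold higher, the latter with 6 of 6 over 2-fold.

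Vitamin D5 was examined in Balb/c glands at day 24. Fos was 2.56-fold higher with Vitamin D5, the only member over 2-fold, where 2.86% of 12025 genes were higher and 2.99% lower (1.97% and 3.66% after scaling to the 75th percentile). Egr1 was 1.78-fold higher, Junb 1.57-fold, Fosl1 1.45-fold and Myc 1.27-fold, each beyond the SD of 0.22. Fosb (0.14), Jun (0.09), Srf (0.08) and Jund (-0.07) had log2 ratios within it, and the signs of Jun and Srf changed under other scalings. Among the marker sums, milk protein was 3.58-fold higher with Vitamin D5, with 4 of 4 genes over 2-fold, stroma 1.80-fold, basal epithelium 1.40-fold and luminal epithelium 1.17-fold, while adipocytes were 1.52-fold lower.

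Balb/c glands without Vitamin D5 were set against WT glands of day 24 without DMBA, a comparison of strains that shares an array with each of 3 others. Fosl1 was 3.60-fold lower and Fos 2.18-fold lower in Balb/c, the members over 2-fold, where 10.8% of 11999 genes were lower and 4.36% higher. After scaling to the 75th percentile only Fosl1 passed, Fos falling short with a log2 ratio of -0.91, against 5.64% of all genes lower and 6.13% higher. Junb was 1.77-fold lower, Myc 1.64-fold and Egr1 1.57-fold, beyond the SD of 0.33. Srf (-0.22), Fosb (-0.18), Jund (-0.17) and Jun (0.07) had log2 ratios within it, and the first 3 of these changed sign under another scaling. The titles do not state whether the Balb/c glands had DMBA, so strain and exposure cannot be told apart. Milk protein markers were 5.28-fold lower in sum in Balb/c, though over 2-fold 2 of 4 were lower and 1 was higher. Adipocyte markers were 3.85-fold lower, with 6 of 6 over 2-fold. Basal markers were 2.11-fold and stromal markers 1.90-fold higher, and luminal markers 1.35-fold lower. The part of composition was not tested in these last 3 comparisons.

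**Figure D2:**
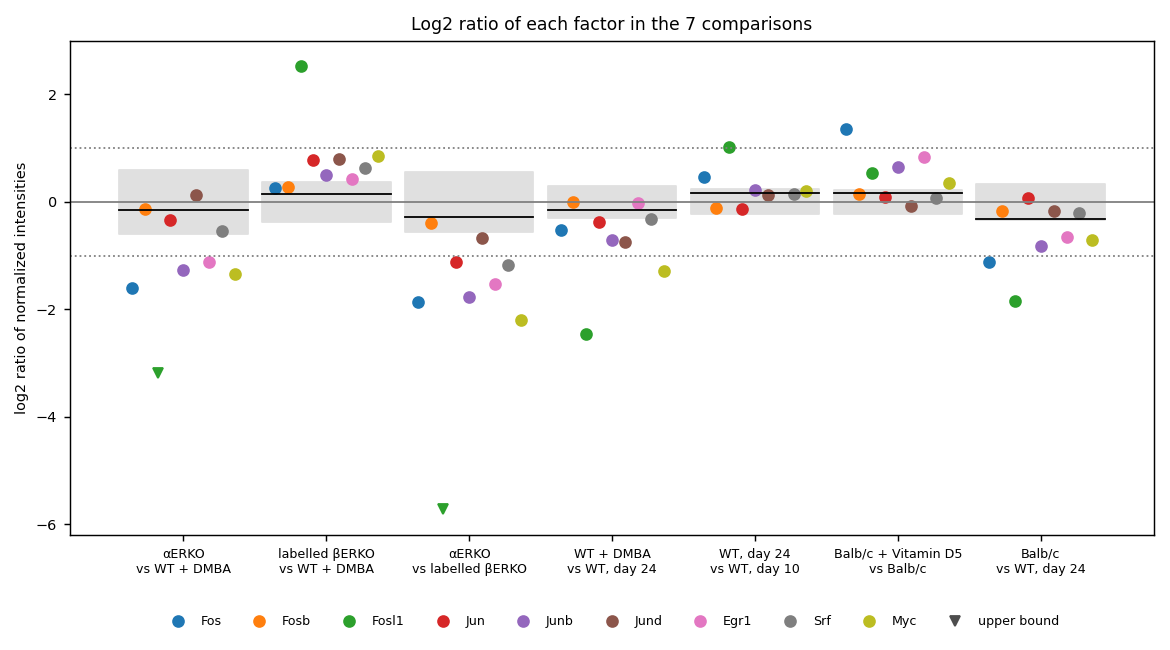
Log2 ratio of normalized intensities of each gene in the 7 comparisons, first-named array over the second, 1 point per gene. Grey bands span the probe-pair SD on either side of 0, black lines mark the median of all genes, dotted lines mark 2-fold and triangles are upper bounds. Fosl1 is the farthest from 0 in 6 of the 7 comparisons, with Fos in its place for Vitamin D5.

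Among the comparisons Fosl1 was over 2-fold in 6 of 7, Fos in 4, Myc in 3, Junb and Egr1 in 2 each and Jun and Srf in 1 each, and Fosb and Jund in none. Several comparisons share an array, so these are not independent counts.

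Relatives and targets of the factors were read from lists written by hand, which overlap in part. For each list the genes counted had a good spot on at least 1 array of the pair. A list's count is to be read against the background of its comparison given above, and no list was tested.

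Other members of the AP-1 bZIP family can pair with Jun proteins or compete for their sites. Of 9 tested between αERKO and WT + DMBA, 1 was over 2-fold higher and 4 were lower, with a median log2 ratio of 0.12. The higher gene was Batf3, a dendritic cell factor, 7.72-fold, and the lower ones included the small Maf genes Mafg, 3.19-fold, and Mafk, 2.24-fold. Mafk was 2.26-fold higher on the array labelled βERKO than on WT + DMBA, the only 1 of 10 over 2-fold, and 5.05-fold lower on αERKO than on the array labelled βERKO. For this gene the normalized intensity was 1.47 on αERKO, 7.44 on the array labelled βERKO, 3.29 on WT + DMBA, 5.30 on WT at day 10, 9.00 on WT at day 24, 2.81 on Balb/c and 3.97 with Vitamin D5, so the αERKO array was the lowest and WT at day 24 the highest, as for Myc. With DMBA 2 of 9 of these relatives were lower, with culture time 1 of 8 was higher, with Vitamin D5 none of 9 was over 2-fold, and in Balb/c 2 of 8 were lower.

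Among the other immediate early genes, 18 of 44 were over 2-fold lower and 3 higher on αERKO than on WT + DMBA, with a median log2 ratio of -0.69. On the array labelled βERKO, 13 of 45 were higher and 1 was lower than on WT + DMBA, with a median of 0.54. On αERKO against the array labelled βERKO, 27 of 45 were lower and 2 higher, with a median of -1.23. Cxcl1, a neutrophil chemokine, was at 1.07 on αERKO, 138 on the array labelled βERKO, 11.2 on WT + DMBA, 104 on WT at day 10, 34.8 on WT at day 24, 65.1 on Balb/c and 146 with Vitamin D5. Klf6, a zinc finger factor, was 14.9-fold lower on αERKO than on WT + DMBA. Klf2, a factor of endothelial cells and quiescent lymphocytes, went the other way, 3.52-fold lower on the array labelled βERKO relative to WT + DMBA and 9.52-fold higher on αERKO than on the array labelled βERKO. Ptgs2, the inducible cyclooxygenase, was 13.7-fold higher on the array labelled βERKO than on WT + DMBA, where its level was 0.565 against 7.98 on WT at day 24 without DMBA. With DMBA, 9 of 44 were lower and 4 higher, with Vitamin D5 2 of 47 were higher and none was lower, and with culture time 3 of 46 were higher and 1 was lower. In Balb/c, 10 of 45 were lower than in WT at day 24 and 1 was higher.

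The MAP kinase cascade, from EGFR and RAS to ERK, JNK and p38, lies upstream of these factors. Of its genes 6 of 24 were lower and 4 higher on αERKO than on WT + DMBA, and none of 24 was over 2-fold on the array labelled βERKO. With the knockout arrays set against each other, 10 of 25 were lower and 2 higher on αERKO. Mapk13, an epithelial p38 kinase, was 4.29-fold lower on αERKO than on WT + DMBA, and Mapk3, which encodes ERK1, was 3.24-fold lower. Mapk12, a p38 kinase abundant in skeletal muscle, was 2.03-fold higher, on an array whose skeletal muscle markers were higher. With DMBA 1 of 24 was lower, with culture time none of 24 was over 2-fold, with Vitamin D5 1 of 25 was higher, and in Balb/c 4 of 24 were lower.

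Genes known as AP-1 targets included Cxcl1, Ptgs2, Plaur, Ccl2 and Il6 of the immediate early list. On αERKO 13 of 22 were over 2-fold lower than on WT + DMBA and 4 were higher, with a median log2 ratio of -1.38. On the array labelled βERKO 10 of 21 were higher and 2 lower, with a median of 0.93. Between the knockout arrays 15 of 22 were lower on αERKO and 1 was higher, with a median of -1.91. Hmox1, heme oxygenase 1, was at 6.16 on αERKO, 446 on the array labelled βERKO, 160 on WT + DMBA, 371 on WT at day 10, 559 on WT at day 24, 336 on Balb/c and 230 with Vitamin D5, so that αERKO was the lowest array and WT + DMBA the next. Timp1, an inhibitor of matrix metalloproteinases, was 21.6-fold lower on αERKO than on WT + DMBA, where it was at its highest, 31.2. Sprr1a, a cornified envelope protein, was 17.7-fold higher on the array labelled βERKO and 5.12-fold higher on αERKO than on WT + DMBA. With DMBA 9 of 22 were lower and 6 higher, with a median of -0.76, the higher ones including the stromal gene Dcn. With Vitamin D5 5 of 21 were higher and none was lower, with a median of 0.76, among them Timp1 with a log2 ratio of 1.21 and Cxcl1 with 1.16. With culture time 4 of 21 were lower and 1 was higher, and in Balb/c 3 of 21 were higher and 2 lower.

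**Figure D3:**
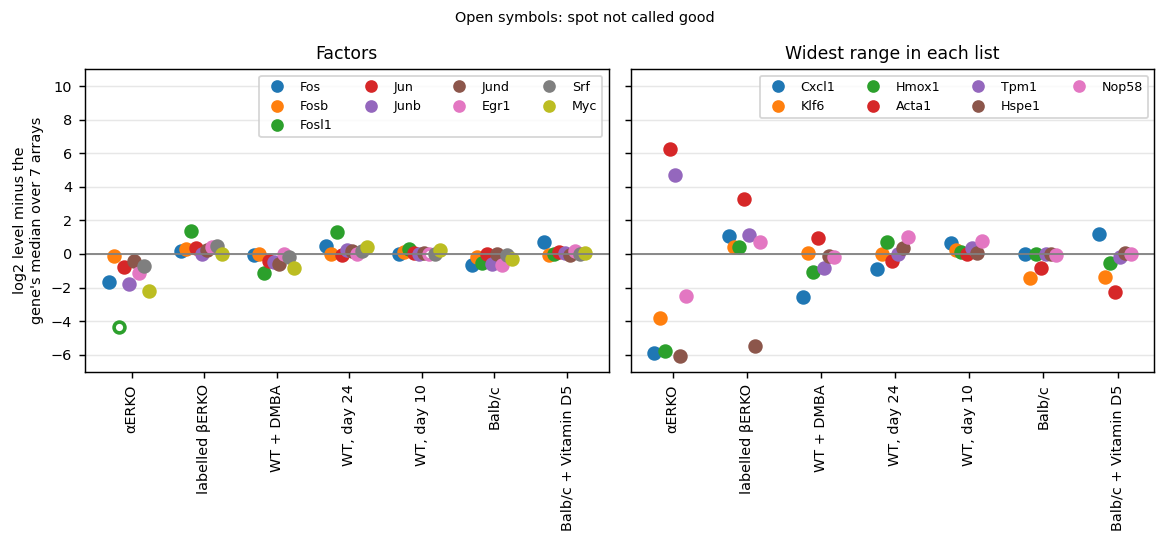
Log2 level on each array minus the gene's median over the 7 arrays, for the 9 factors (left) and for the 2 genes of widest range among those good on all arrays from each list of immediate early genes and of AP-1, SRF and MYC targets (right, 7 genes, since Cxcl1 is in both of the first lists), with open symbols for spots not called good. The αERKO array lies below the median of each factor and of 5 of the 7 list genes, and far above it for the muscle genes Acta1, at 224, and Tpm1, at 35.0.

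SRF acts with ternary complex factors of the ETS family and with myocardin-related cofactors. The list read here also holds ETS genes other than the Elk genes, such as Fli1 and Ets1, and the cofactor gene Fhl2. Of its 6 tested genes, 2 were over 2-fold lower and none higher on αERKO than on WT + DMBA. These were Fli1, by 2.55-fold, and Elk3, by 2.42-fold, and Fli1 was 2.93-fold lower on the array labelled βERKO too. Between the knockout arrays 1 of 5 was over 2-fold, Fhl2, 2.24-fold lower on αERKO. With DMBA 2 of 6 were higher, and they were again Fli1 and Elk3. SRF target genes of actin and smooth muscle were divided, with 6 of 17 lower and 3 higher on αERKO than on WT + DMBA and a median log2 ratio of -0.23. The highest were the muscle genes Tpm1, 46.3-fold, and Acta1, 38.6-fold, the second of which is also among the skeletal muscle markers. The lowest was Ccn2, a matricellular growth factor gene, 4.30-fold. Its relative Ccn1 was at 10.2 on αERKO, 71.1 on the array labelled βERKO, 25.8 on WT + DMBA, 30.0 on WT at day 10, 45.6 on WT at day 24, 28.5 on Balb/c and 39.8 with Vitamin D5. On the array labelled βERKO 4 of 18 were higher and 1 was lower, and between the knockout arrays 7 of 17 were lower and 2 higher on αERKO. With DMBA 6 of 18 were higher and none was lower, with culture time 2 of 17 were higher, with Vitamin D5 2 of 17 were lower, and in Balb/c 1 of 18 was higher and 1 lower.

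MYC binds DNA with MAX, and MXD proteins compete for MAX. Of these partners 2 of 10 were lower on αERKO than on WT + DMBA, Max itself by 2.08-fold and Fbxw7, a ubiquitin ligase subunit that targets MYC, by 2.89-fold. On the array labelled βERKO 1 of 11 was over 2-fold, Mga, 10.5-fold higher. In the knockout pair 4 of 11 were lower on αERKO, with DMBA 1 of 11 was lower, with Vitamin D5 1 of 10 was higher, and in Balb/c 5 of 11 were lower. Of the MYC target genes, which serve ribosome production and growth, 10 of 24 were lower and none higher on αERKO than on WT + DMBA, with a median log2 ratio of -0.86. Between the knockout arrays 16 of 23 were lower and none higher, with a median of -1.42, and with DMBA 7 of 24 were lower and 1 was higher, with a median of -0.86. On the array labelled βERKO 2 of 24 were higher and 1 was lower, with a median of 0.49. None of 24 was over 2-fold with culture time or with Vitamin D5, and in Balb/c 6 of 24 were lower.

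The nucleolar gene Nop58 was at 1.03 on αERKO, 9.69 on the array labelled βERKO, 5.26 on WT + DMBA, 10.2 on WT at day 10, 12.2 on WT at day 24, 5.72 on Balb/c and 5.94 with Vitamin D5. Odc1, the first enzyme of polyamine synthesis, was 2.15-fold higher on the array labelled βERKO than on WT + DMBA. Hspe1, a mitochondrial chaperonin, departed from the list, at 3.04 on αERKO and 4.70 on the array labelled βERKO against 187 to 260 on the arrays of wild-type glands. The luminal marker sum put the arrays in nearly the same order as Myc did, from 444 on αERKO through 549 on WT + DMBA to 1161 on WT at day 24, with only Balb/c and the array labelled βERKO exchanged. From Balb/c upward, however, each neighbouring Myc step was within the SD. The log2 ratio of Balb/c over WT at day 24 was -0.71, beyond the SD of 0.33. The luminal sums of Balb/c with Vitamin D5 (1010.4) and WT at day 10 (1010.6) hardly differed. The part of epithelial content in the levels of Myc and its targets was not tested.

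**Figure D4:**
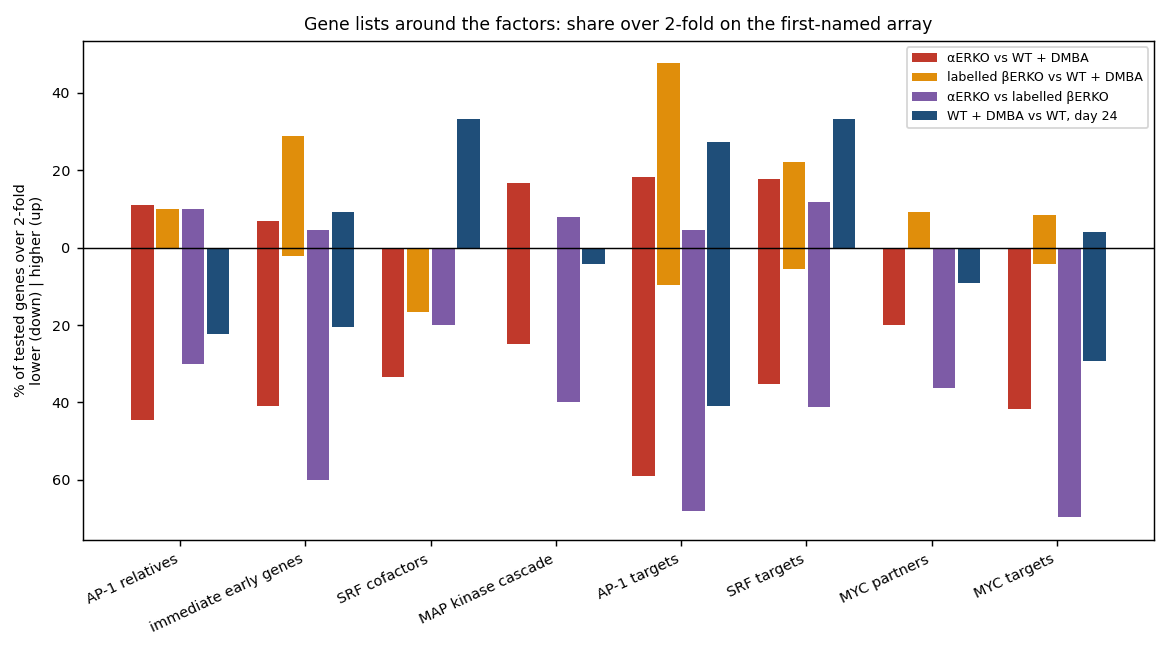
Share of the tested genes of 8 hand-written lists that were over 2-fold higher (upward) or lower (downward) on the first-named array, in percent, for the first 4 comparisons. On αERKO against the array labelled βERKO, 69.6% of the MYC targets and 68.2% of the AP-1 targets are lower, and on the array labelled βERKO 47.6% of the AP-1 targets are higher than on WT + DMBA.

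For each factor the genes of most similar pattern were sought by Pearson's r over the 7 arrays among the 9338 genes good on all of them. The top gene was Donson for Fos (0.986), Fam3a for Fosb (0.981), Olfr1012 for Fosl1 (0.999), Gsta3 for Jun (0.993), Klc3 for Junb (0.999), Sec61g for Jund (0.986), Psmd10 for Egr1 (0.988), Homer3 for Srf (0.993) and Fam91a1 for Myc (0.998). The next genes were Numb and Myd88 for Fos, Olfr1106 and Pam for Fosb, Ccng1 and Alkbh2 for Fosl1, Wdr1 and Olfr518 for Jun, and Nln and Map3k20 for Junb. They were Sdcbp2 and Cbr1 for Jund, Pgpep1 and Kdm2b for Egr1, Ccn1 and Ces1c for Srf, and Snx16 and Pde7a for Myc. Without the αERKO array the r of these 27 genes lay between 0.935 and 0.997. A search of this many genes over 7 arrays returns high values in any case, and these are descriptions.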

How the data were processed

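Total RNA of pooled glands was labelled by the authors and hybridized to CodeLink arrays. The deposited intensity is a spot's mean minus its median local background, flagged for quality by the CodeLink software, and the authors also deposited a normalized intensity, used here as an alternative. A table of the whole series, whose rows are not paired with probes, was not used. Control spots (620) were left out. Each of 34967 gene probes was scaled by the median of its array, as in the study's methods. Log2 was taken after values not above 0 had been replaced by the smallest positive value. The median intensity before scaling lay between 39.1 and 53.0 over a local background of 80 to 83, so dim probes are imprecise, and having only 7 arrays limits how precise a ratio can be.

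RefSeq named 14763 of 15553 probes with a RefSeq accession, and the brightest probe stands for a gene. Near background on 1 array, a probe has a bound, the bright value over the higher of the dim array's lowest good value and the probe's own. Genes good on at least 1 array of a pair, with no spot masked or irregular, were counted when over 2-fold. The yardstick SD came from pairs of probes of 1 accession. The genes named are the 10 factors, the 2 highest and 2 lowest of each list in the comparisons among αERKO, βERKO and WT + DMBA and the 2 of widest range, the 3 most similar genes per factor, the markers, Esr1 and Esr2, and others named from the lists were chosen after their values were seen. The factors, lists and motifs were chosen with earlier results of these data known. Alternatives were scaling to the 75th percentile, quantile normalization, the deposited normalized intensity, normexp background correction with an offset of 50, measured values in place of bounds, genes good on both arrays, the mean of a gene's probes, and thresholds of 3-fold and 1.5-fold. The values without the αERKO array were added after the data had been seen. The counting was tested on simulated data. Python 3.11.15, pandas 2.3.3, NumPy 2.4.6, Matplotlib 3.10.9 and, for normexp, limma 3.58.1 in R 4.3.3 were used.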

Additional observations from a re-analysis of the deposited data

How the results depend on the processing

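Of 432 recomputed log2 ratios of the factors, 12 changed sign, none of them among ratios over 2-fold, the largest having a log2 ratio of -0.22 before the change. Some of the alternatives could hardly change these results. Each factor has 1 probe, so the mean of a gene's probes repeated its values. Measured values in place of bounds gave the same ratios. Genes good on both arrays can only drop a factor, and the deposited normalized intensity moved the median of all genes by at most 0.0049. With these alternatives included, the number of factors over 2-fold stayed within 1.5 times its first value in 46 of 63 recomputed counts. For the comparison of culture times it became 0 with scaling to the 75th percentile, quantile normalization, normexp and a 3-fold threshold, since Fosl1 lay close to the threshold. For Balb/c against WT it became 1 under the same 4 alternatives. Under these, in that order, 677, 970, 400 and 271 of 11999 genes were lower and 736, 591, 155 and 145 higher. For αERKO against WT + DMBA it became 2 with normexp and 2 with a 3-fold threshold. Of all 12079 genes, 1089 were lower and 544 higher with normexp, and 609 were lower and 602 higher at 3-fold. A 3-fold threshold gave 4 lower for αERKO against the array labelled βERKO, 1 lower for DMBA and 0 for Vitamin D5. Of all genes, 847 of 11890 were lower and 672 higher in the first of these. With DMBA 174 of 12074 were lower and 525 higher at this threshold. A 1.5-fold threshold gave 5 factors higher for the array labelled βERKO against WT + DMBA and 4 lower for DMBA. It gave 3 higher for Vitamin D5 and 5 lower for Balb/c against WT. Of all genes, 1829 of 11983 were higher and 1266 lower in the first of these comparisons. With DMBA 2457 of 12074 were lower and 1969 higher. With Vitamin D5 1255 of 12025 were higher and 772 lower, and in Balb/c 3665 of 11999 were lower and 1077 higher. Scaling moved the median of all genes by at most 0.22 on the log2 scale. Apart from thresholds, the cause was not tested. No paired analysis was possible because each group had 1 array and the labels give no replicate numbers. Each factor rests on 1 probe per array, so neither animal-to-animal nor array-to-array error could be measured, and for dim probes (Egr1, and Fos, Junb and Fosl1 on αERKO) the ratio depends on the background correction.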
